A study of Mus musculus with 15 samples.

Results

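The genes described here encode the machinery that moves proteins and membrane between compartments: Rab, Arf and Arl GTPases, the Sec61 translocon, the COPII and COPI coats, Tmed cargo receptors and Vps proteins of the endosome. They were taken by name from the deposited expression table, as every row whose symbol starts with Rab, Arl or Vps and a digit, is Arf1 to Arf6, or belongs to the Sar1, Sec13, Sec16, Sec22 to Sec24, Sec31, Sec61 to Sec63, Cop and Tmed families. The rule uses no measured value. It found 133 of 8446 rows, of which 131 are protein-coding and 2 (Rab10os and Rab26os) are antisense RNAs. The GENCODE M21 annotation names 179 protein-coding genes that match the rule, so counts within a family cover only genes with a row.

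The table holds 15 single cells, 1 sample each, all from 1 group. They are Tomato+ cells of inguinal white fat from adult C57BL/6 mice of the genotype Prrx1-CreERT;Tomato. The mice received tamoxifen daily on 3 days (2 mg for each 30 g that a mouse weighed). In these mice a tamoxifen-activated Cre driven by Prrx1, a homeobox gene of mesenchyme, switches on the red reporter. The fat was digested with collagenase for 1 h at 37 °C, sorted for Tomato, and the cells were picked one by one. There is no untreated or reporter-negative group, and no label ties a cell to a mouse. Each cell is therefore described by itself, with no p-value.

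Proteins that will leave the cell enter the endoplasmic reticulum through the Sec61 channel, leave it in COPII vesicles that Sar1 starts to build, and are returned from the Golgi in COPI vesicles that Arf GTPases start. Tmed proteins select cargo in both directions, and Rab GTPases mark each compartment for the next fusion. Vps proteins sort what comes back from the cell surface: retromer recycles receptors, ESCRT complexes bud membrane into the lumen, and HOPS tethers endosomes to lysosomes. Fibroblasts export collagen, a cargo too long for an ordinary vesicle, which is why the trafficking genes were set against the collagen genes of the same cells.

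Values are log2(FPKM + 1), where FPKM is fragments per kilobase of transcript, scaled to the library's size, and a gene counts as detected in a cell at 1 FPKM or more. All cells share nearly the same sorted values, so 4369 rows are detected in each cell by construction and a value reads as a rank within its cell. Read depth is unknown. Markers fixed for the labelled tissue were present: of 8 stromal progenitor genes, among them Pdgfra, Cd34 and Lum, all were detected in 8 or more cells and 6 in every cell. Cell 13 had the lowest mean of that list (4.74, against a median of 9.13). Of the 7 mitosis genes 4 had a row, without Mki67, Top2a and Ccnb1. Their mean was highest in cell 13 (11.12, against at most 2.60 in the other cells). Of the 7 mural genes of pericytes and smooth muscle 5 had a row, without Notch3 and Cspg4. Their means were 8.72 in cell 5 and 5.83 in cell 13, with 2.37 as the next highest. Of the 7 genes of the mature adipocyte list 3 had a row, without Adipoq, Plin1, Lep and Cidec. Their mean was highest in cell 12 (5.91). Of the endothelial list 2 of 5 genes had a row, without Pecam1, Cdh5 and Kdr, highest in cells 13 (5.48) and 5 (3.99). Of the immune list 1 of 5 had a row, without Ptprc, Cd68, Lyz2 and Cd74, highest in cell 2 (6.39).

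Trafficking genes were detected more often than the average row. Of the 133 genes, 27 (20.3%) were detected in all 15 cells, where 12.1% of all rows were. In 8 or more cells 85 genes (63.9%) were detected, beside 46.8% of all rows. Only Vps37b, with 0 cells, and Copg2, with 1 cell, were detected in fewer than 2, beside 5.02% of all rows. A gene's mean over the cells had a median of 2.42 among the trafficking genes and 1.89 among all rows. The number of trafficking genes detected per cell ran from 74 in cell 12 to 88 in cells 2 and 7, with a median of 85. The families were unlike in breadth, as the plot of levels by role shows: all 8 Tmed genes and all 6 Arf genes were detected in 8 or more cells, against 7 of 15 Arl GTPases and 10 of 22 Vps genes.

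**Figure D1:**
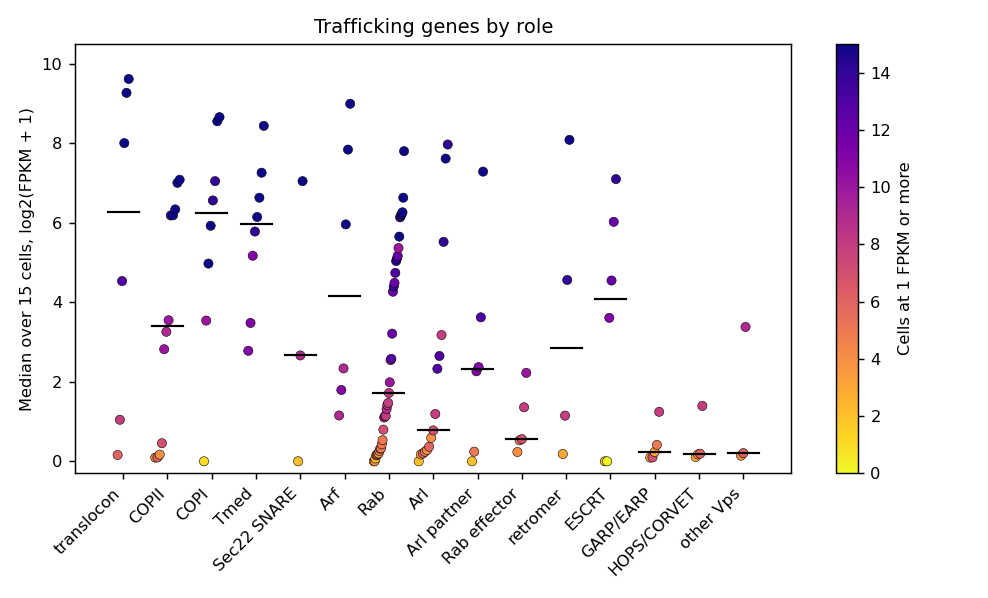
Median over the 15 cells (y axis, log2(FPKM + 1)) of 130 trafficking genes, grouped by role on the x axis, 1 point per gene, coloured by the number of cells at 1 FPKM or more, with a line at the group's median. Rab10os, Rab26os and Sec23ip are not drawn. Translocon, COPI and Tmed genes sit high, up to 9.62 for Sec61b. All genes grouped by name as GARP/EARP or HOPS/CORVET lie at 1.39 or below.

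The translocon held the highest trafficking genes. Sec61b (chr4:47474658-47483242, plus strand), the small beta subunit of the channel, had a lowest value of 4.49, a median of 9.62 and a highest value of 10.35. It stood at 7.20 or more in 14 cells, and cell 15 alone lay at 4.49. Sec62, which helps short and late-targeted proteins into the channel, ran from 7.99 to 10.73 with a median of 9.27, and no cell stood apart. Sec61g, the gamma subunit, ran from 6.20 to 9.06 with a median of 8.01. The pore subunit Sec61a1 was lower and less regular: it was detected in 13 cells with a median of 4.53, and stayed under 1 FPKM in cells 1 (0.62) and 14 (0.67). Its paralogue Sec61a2 reached 1 FPKM in 6 cells, with a peak of 6.41 in cell 4. Sec63, the co-factor that recruits the chaperone BiP, reached it in 8 cells, with a peak of 6.91 in cell 12. These differences between genes are per transcript length. The cDNA kit is named for the 3' end, and whether reads scaled with transcript length here was not tested. Across the trafficking genes the mean level had a Spearman correlation of −0.27 with the length of the longest transcript, and across all rows −0.30. With length multiplied back, 10 of the 12 highest trafficking genes remained, with Rab18 and Sec24d in place of Arl1 and Copz2.

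COPII genes came as a widely detected and a sporadic set. The widely detected set was Sec13 (median 7.08), Sec24d (7.01), Sar1a (6.34), Sec31a (6.19) and Sar1b (6.19). The first 4 were detected in every cell and Sar1b in 14. Their levels were not all steady: Sar1b ran from 0.86 to 7.84 and Sec31a from 2.12 to 8.69. Sec13 and Sec31a form the outer cage, Sec24 proteins are the inner adaptors that read cargo signals, and Sar1 is the GTPase. Sec24d (chr3:123267455-123365641, plus strand) ran from 3.91 in cell 5 to 8.88 in cell 13. It was higher than Sec24a in all 15 cells, and Sec24a, Sec24b and Sec24c were detected in 9, 6 and 4 cells. Cell 10 departed from the others, with Sec24b at 8.77 above Sec24d at 4.20.

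The inner coat subunits Sec23a and Sec23b, which activate Sar1, were each missing from some cells, with no relation between them (Spearman correlation 0.05). Each was detected in 10 cells, both in 7, and neither in cells 1 and 6. Sec23a ran from 0.09 to 5.71 with a median of 2.82, and Sec23b from 0.14 to 7.12 with a median of 3.55. In cell 11 Sec23a stood at 4.89 and Sec23b at 0.14, and in cell 8 they stood at 0.35 and 4.90. The Sar1 paralogues were split as well: Sar1a was the higher in 8 cells and Sar1b in 7, and cell 9 had Sar1a at 6.41 and Sar1b at 0.86. The scaffold genes of the exit sites were low, with Sec16a detected in 4 cells and Sec16b in 7. The mean over the 12 COPII genes was lowest in cell 5 (1.85) and highest in cell 2 (4.80), with a median of 3.85.

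Among COPI genes, Cope was steady (SD over cells 0.85), and Copz1 and Copb2 varied most (2.68 each). Copz2 had an SD of 1.91, beside a median of 2.05 for all rows detected in 3 or more cells. Cope, the epsilon subunit that stabilises the coat, ran from 7.09 to 10.31 with a median of 8.66. Copz2 (chr11:96849870-96861203, plus strand), the second form of the zeta subunit, ran from 3.54 in cell 15 to 10.63 in cell 2 with a median of 8.56. Copz1, the general form, had a median of 7.05 but stood at 1.12 in cell 6, 0.68 in cell 11 and 1.32 in cell 12, where Copz2 was at 8.72, 9.99 and 6.49. Per transcript length, Copz2 was the higher in 12 of 15 cells, and Copz1 in cells 5, 13 and 15. Copb2 ran from 0.82 in cell 6 to 9.07 in cell 4, Copb1 from 1.54 to 6.55, and Copa, which with Copb2 recognises retrieval signals, from 1.05 in cell 1 to 7.47 in cell 6. Copg1 was detected in 10 cells and Copg2 in 1 (cell 9, 2.47). Copg2 lies over the imprinted gene Mest, and 17.8% of its exon bases overlap exons of the opposite strand, so its reads may not have been told apart.

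**Figure D2:**
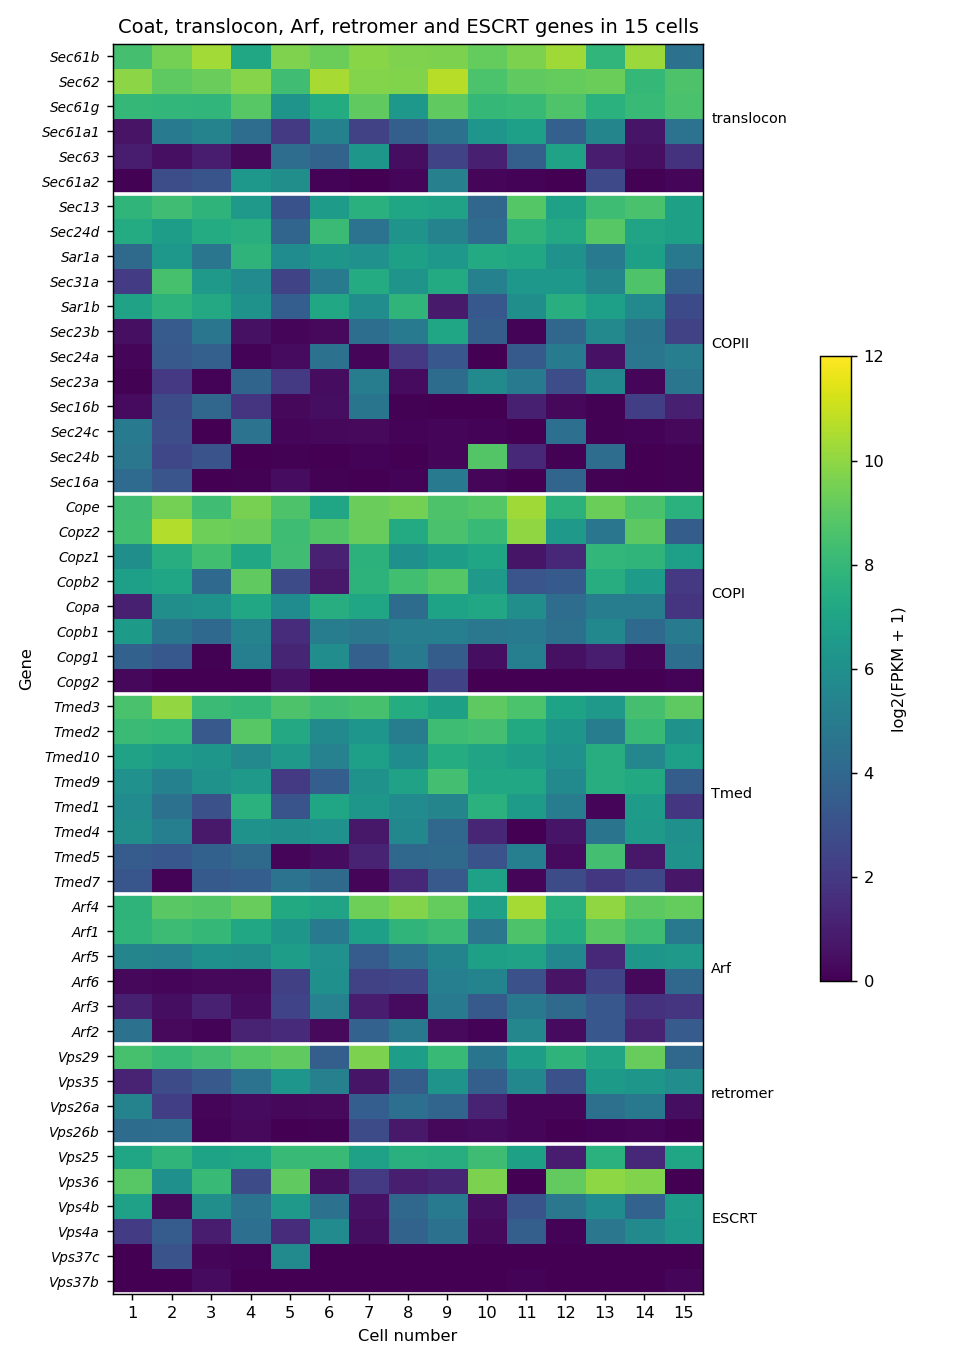
Heat map of 50 trafficking genes in 7 role groups (rows, sorted by median within the group) over cells 1 to 15 (columns), coloured by log2(FPKM + 1). Steady genes such as Sec62, Cope, Tmed10 and Arf4 run as even bands, while Copz1, Sec23a, Sec24b and Vps36 switch between high values and values near 0.

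Promoter sequences are shown for the coat genes because a stress-response motif recurred among them. TGACGTGG, the letters of the unfolded protein response element that ATF6 and XBP1 bind, was searched on both strands from 250 bases before to 50 bases after each RefSeq start (GRCm38.p6). Of the 133 genes 115 had such a window. The motif was found in 6 of the 115 genes (5.22%), beside 1.19% of the 6566 genes of the table that had a window and 0.714% of all 27025 genes. The 6 are Arf1, Copb1, Copb2, Sec16b, Sec23a and Sec24d, members of the COPI and COPII groups and the GTPase that recruits COPI. Each stretch below is 30 bases, 5′ to 3′ on the gene's strand, with the motif in capitals, which read CCACGTCA where it lies on the other strand.
Arf1 (chr11:59228228-59228257, minus strand): gcggcaggcgcTGACGTGGctgccgtcagc
Copb1 (chr7:114254690-114254719, minus strand): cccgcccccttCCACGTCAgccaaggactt
Copb2 (chr9:98563713-98563742, plus strand): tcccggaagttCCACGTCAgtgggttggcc
Sec16b (chr1:157506741-157506770, plus strand): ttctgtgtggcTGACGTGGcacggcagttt
Sec23a (chr12:59011993-59012022, minus strand): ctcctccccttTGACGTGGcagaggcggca
Sec24d (chr3:123267459-123267488, plus strand): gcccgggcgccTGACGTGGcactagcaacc

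These 6 genes did not share a level: their medians ran from 0.46 for Sec16b to 7.84 for Arf1, and, for the 5 detected in 8 or more cells, their Spearman correlations with the mean collagen level of a cell from −0.39 (Arf1) to 0.26 (Sec23a). The longer ER stress elements ERSE (CCAAT and CCACG 9 bases apart) and ERSE-II were found in 0 of the 115 genes and in 0.168% and 0.122% of the genes of the table. A match is a description of letters and shows no binding.

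A second motif was found in other genes. TCACGTGA, the core of the site bound by TFEB, the regulator of lysosomal genes, was found in 8 of the 115 genes (6.96%), beside 2.50% of the genes of the table. They are Arl2, Rab21, Rab24, Rab5a, Sec23ip, Sec62, Vps16 and Vps26a. The core contains the shorter E-box CACGTG, which was found in 20 of the 115 genes (17.4%, beside 12.5% of the genes of the table). Stretches of 30 bases are given for 4 genes of the early endosome, HOPS and retromer, with the core in capitals, and Vps26a held a second match that is not shown.
Rab5a (chr17:53479127-53479156, plus strand): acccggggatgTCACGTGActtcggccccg
Rab21 (chr10:115315604-115315633, minus strand): gcccaccgcggTCACGTGAcgaggggtgtg
Vps16 (chr2:130424290-130424319, plus strand): aggcggcctcgTCACGTGAccccgaagggc
Vps26a (chr10:62486970-62486999, minus strand): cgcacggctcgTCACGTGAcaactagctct

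Tmed cargo receptors were among the most evenly present families. Tmed3 ran from 6.51 to 10.04 with a median of 8.44, and its SD over cells was 0.93. Tmed10, which pairs with Tmed2 in the p24 complex, had the smallest SD of the family (0.67), from 5.32 to 7.46. Tmed2 ran from 3.36 in cell 3 to 8.86 in cell 4, and 27.6% of its 50-base runs also occur in transcripts of other genes, so its reads may be shared with near-identical copies. Tmed5 reached 1 FPKM in 11 cells and peaked at 8.42 in cell 13, where the mitosis genes were highest and Tmed1 was lowest (0.22). The part of the mitosis genes in these values was not tested. Sec22b, the SNARE that fuses vesicles between ER and Golgi, was detected in all 15 cells (3.28 to 7.99, median 7.05).

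Of the Arf GTPases, Arf4 and Arf1 led. Arf4 ran from 6.88 to 10.40 and was higher than Arf5 (median 5.96) in all 15 cells. Arf1 had a median of 7.84, with 5.01 in cell 6, 4.75 in cell 10 and 4.84 in cell 15, and 6.36 or more in the other 12 cells. Arf2, Arf3 and Arf6, which acts at the plasma membrane, were detected in 9, 11 and 9 cells with medians of 1.15, 1.79 and 2.34. Arf6 was highest in cell 6 (6.04), followed by cells 10 (5.41) and 9 (5.20).

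Rab GTPases ranged from present in every cell to present in 2. Of 39 Rab GTPases, 26 were detected in 8 or more cells and 5 in all: Rab11a (median 7.80), Rab1a (6.63), Rab34 (6.27), Rab7 (6.22) and Rab2a (5.65). These counts are 66.7% and 12.8%, beside 46.8% and 12.1% of all rows, so the share detected in every cell was near the background. Rab11a, of the recycling endosome, ran from 3.93 in cell 5 to 10.79 in cell 8. Per transcript length it was above Rab11b in all 15 cells. Rab1a, which guides ER vesicles to the Golgi, ran from 1.14 in cell 12 to 8.47 in cell 11, and was above Rab1b in 12 cells. Rab7, of the late endosome, ran from 2.74 in cell 15 to 7.82 in cell 2. The early endosome Rabs were below these: Rab5a, Rab5b and Rab5c were detected in 13, 8 and 10 cells with medians of 2.58, 1.72 and 1.99, and 5 cells had both Rab5b and Rab5c. Rab29, linked to the kinase Lrrk2, switched between cells, with 5.37 or more in 8 cells and 1.88 or less in the other 7.

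**Figure D3:**
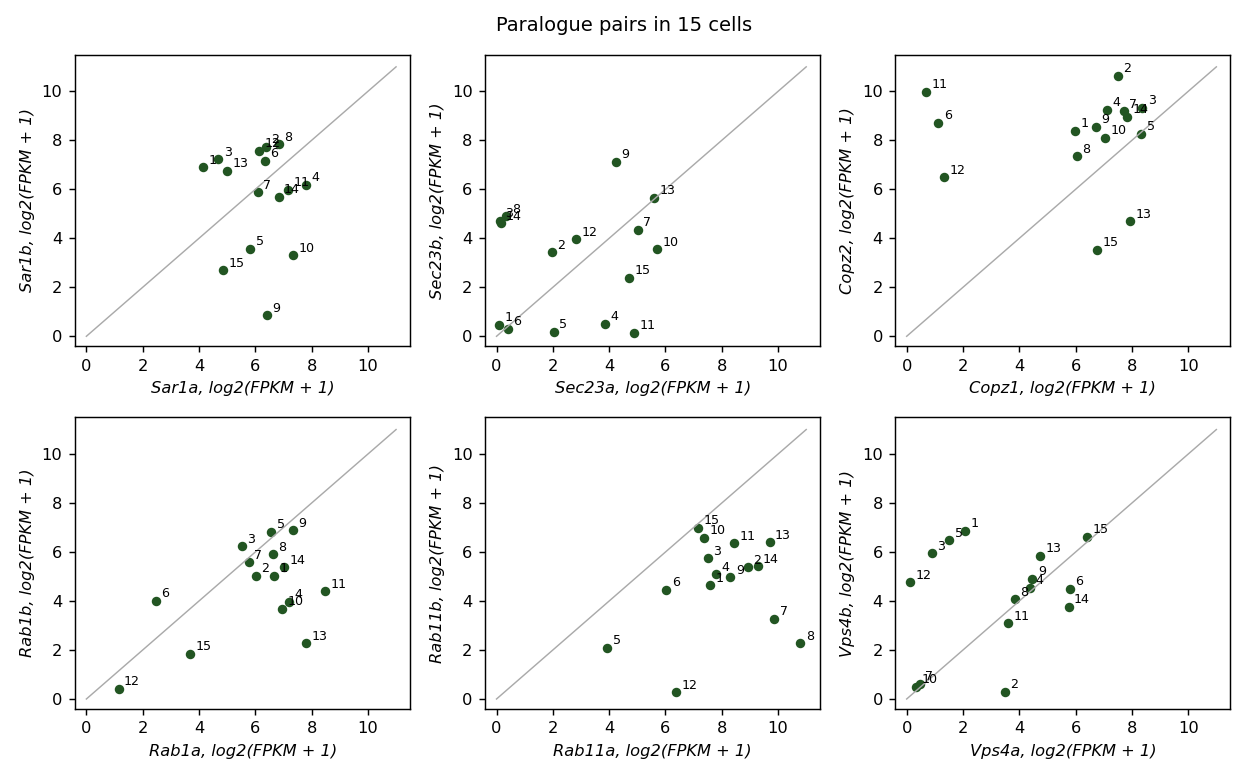
Scatter plots of 6 paralogue pairs over the 15 cells, numbered, with both axes in log2(FPKM + 1) and a line where the 2 genes are equal. On this scale, which is per transcript length, Rab11a exceeds Rab11b in every cell and Copz2 exceeds Copz1 in 12 cells. The Sar1 and Sec23 pairs scatter on both sides of the line.

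The 6 pairs in the scatter plots had little relation within a cell. Over the 15 cells the Spearman correlation was −0.09 for Sar1a and Sar1b, 0.14 for Rab1a and Rab1b, 0.10 for Rab11a and Rab11b, 0.05 for Sec23a and Sec23b, 0.10 for Copz1 and Copz2, and 0.19 for Vps4a and Vps4b. Other pairs went further either way, from −0.40 for Arf4 and Arf5 to 0.50 for Vps26a and Vps26b. Points share their cell's library, and low values near 0 can be a missed transcript, so a cell without one paralogue cannot be read as lacking it. Which paralogue is the higher, here and above, also depends on the division by transcript length. The longest transcripts have 2336 bases for Rab11a, 6109 for Rab11b, 1045 for Copz2 and 2438 for Copz1. The order within pairs with length multiplied back was not tested, nor was whether reads scaled with length.

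Of the 15 Arl GTPases 1 was detected in every cell (6.7%, beside 12.1% of all rows) and 7 in 8 or more (46.7%, beside 46.8%). Arl4a, a plasma membrane Arl, was detected in 14 cells, from 0.96 in cell 13 to 10.01 in cell 15, with a median of 7.97. Arl1, which recruits tethers to the trans-Golgi, was steadier, from 5.57 to 9.52 with a median of 7.62. Arl2, a partner of the tubulin folding cofactors, stood between 3.18 and 6.74 in 8 cells and at 0.63 or less in the other 7. Arl6ip1, an ER-shaping membrane protein that binds Arl6, was highest in cell 13 (11.20) and lowest in cell 7 (1.32).

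Of the Vps genes, the retromer subunit Vps29 was the highest. Vps29 ran from 3.63 in cell 6 to 9.63 in cell 7 with a median of 8.09, and Vps35, the scaffold it binds, was detected in 14 cells with a median of 4.56. Vps26a and Vps26b, the arrestin-like subunits, were detected in 8 and 3 cells. The ESCRT-II gene Vps36 (chr8:22192809-22220843, plus strand) had the largest SD of the trafficking genes detected in 3 or more cells, at 4.15. It stood at 6.03 or more in 8 cells (1, 2, 3, 5, 10, 12, 13 and 14), at 2.80 in cell 4, and at 2.06 or less in the other 6. Vps4a and Vps4b, the ATPases that take ESCRT filaments apart, were detected in 11 and 12 cells. Vps25 had a median of 7.10, but 84.0% of its 50-base runs also occur in transcripts of Ramp2, so its value is uncertain. The tethering complexes were lower than the median row, as far as their genes had a row. All 5 GARP/EARP genes and all 4 genes grouped by name as HOPS/CORVET were below 1 FPKM in 7 or more cells. The 4 are Vps11, Vps16, Vps33b and Vps41. In 8 or more cells 1 of the 5 and 1 of the 4 were detected, beside 46.8% of all rows. A gene's mean had a median of 1.40 in GARP/EARP and 1.57 in HOPS/CORVET, beside 1.89 among all rows. Vps45, a partner of SNAREs, stood at 8.78 in cell 7, 8.17 in cell 8 and 4.64 or less in the other 13. Vps72, taken by its name, is a chromatin protein and was detected in 9 cells.

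To set these genes against collagen, each cell was given a collagen score, the mean over the 18 collagen genes detected in 3 or more cells. It ran from 4.20 in cell 13 to 7.39 in cell 7 with a median of 6.12, and the 3 lowest cells were 13, 12 (4.80) and 5 (5.02). Col3a1, the highest collagen gene, ran from 7.40 in cell 5 to 13.69 in cell 11, and Col1a2 from 5.80 in cell 13 to 12.56 in cell 11. The mean over the 126 trafficking genes detected in 3 or more cells ran from 3.08 in cell 12 to 3.79 in cell 10. Means over more genes vary less, and the median SD of single genes was 1.97 for the trafficking genes and 2.11 for the collagens.

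The relation of the trafficking score to the collagen score depended on which collagens were taken. Over the 15 cells the Spearman correlation was 0.25 and Pearson's r 0.13, and the same score over all other rows gave 0.28 and 0.36. The mean of the stromal progenitor markers, which include 3 collagens, had a Spearman correlation of 0.48 with the trafficking score and 0.64 with the collagen score, and its part in the relation was not tested. The trafficking and collagen scores without cells 12 and 13, the 2 farthest from the median collagen score, gave 0.21 (Spearman) and 0.15 (Pearson). Single cells moved the Spearman value between 0.12, without cell 12, and 0.43, without cell 6. Without the mural-high cells 5 and 13 it was 0.31. Against the fibrillar collagens alone (Col1a1, Col1a2, Col3a1 and Col5a1 to Col5a3) it was 0.53, with a Pearson's r of 0.29, and without cells 5 and 13 these were 0.69 and 0.64. Against the basement membrane genes Col4a1, Col4a2 and Col4a5 the Spearman correlation was −0.22. Both scores of a point come from 1 cell, with unknown depth and an unknown number of mice, so these values are descriptions. The number of rows above a cell's lowest value, a measure of library breadth, had a correlation of −0.09 with the trafficking score and 0.08 with the collagen score.

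Secretory genes, those of the translocon, the coats, Tmed, Arf1 to Arf5 and the ER and Golgi Rabs, gave a correlation of 0.17 with the collagen score and 0.46 with the fibrillar score. Endosomal genes gave −0.09 and 0.13, or −0.07 and 0.17 without Vps72, a chromatin protein that the grouping by name had placed there. Without cells 5 and 13 the correlations with the fibrillar score were 0.45 for secretory and 0.47 for endosomal genes. Over all 15 cells, Pearson's r of the secretory score with the fibrillar score was 0.36. Against the Col4 genes the Spearman correlation was −0.40 for secretory and −0.12 for endosomal genes. The secretory score was highest in cell 9 (5.41) and lowest in cell 15 (4.01), and the endosomal score was highest in cell 10 (3.65) and lowest in cell 12 (2.19). The 2 scores had a Spearman correlation of 0.48 with each other, or 0.64 without cells 5 and 13.

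**Figure D4:**
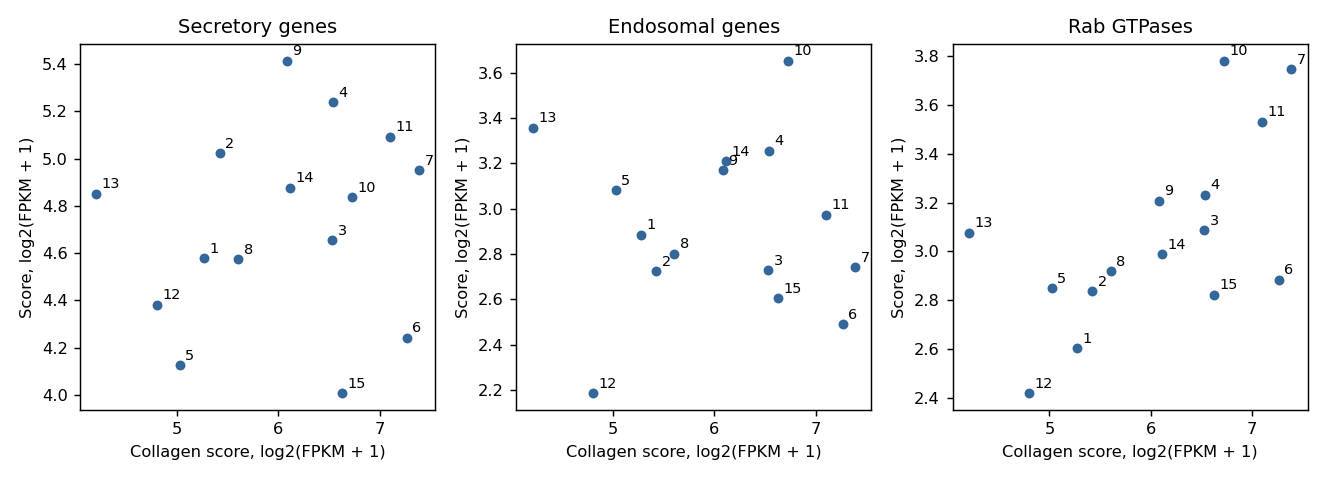
Scores of secretory genes, endosomal genes and Rab GTPases (y axes, mean log2(FPKM + 1)) against the collagen score (x axes, mean log2(FPKM + 1)) in the 15 numbered cells. Cells 6 and 15 combine a high collagen score with low secretory scores (4.24 and 4.01), cell 13 has the lowest collagen score (4.20) at a secretory score of 4.85, and the Spearman correlation is 0.17, −0.09 and 0.58 in the 3 panels.

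COPII, the coat that carries collagen out of the ER, had no steady relation to collagen in these cells. Its score had a Spearman correlation of −0.32 with the collagen score and a Pearson's r of −0.10. Without cells 12 and 13 these were 0.00 and 0.21. Sec23a and Sec24d, whose loss impairs collagen export and skeletal growth, had Spearman correlations with Col1a1 of 0.33 and −0.31, and with Col3a1 of 0.12 and 0.07. Cells 12 and 13, with the lowest collagen scores, had COPII scores of 4.54 and 4.22, above the median of 3.85. Of the 8 COPII genes detected in 8 or more cells, Sar1a was highest against collagen (0.33 with the score, 0.62 with Col1a1). The COPI and Tmed scores gave 0.14 and 0.05 with the collagen score, and the translocon 0.13.

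Rab GTPases gave the highest value and the partners of Arl proteins the lowest among the 14 role groups with 3 or more genes in the score. The Rab score had a Spearman correlation of 0.58 with the collagen score (Pearson's r 0.62), and 20 of the 26 Rab GTPases detected in 8 or more cells (76.9%) had a correlation above 0, beside 53.8% of the other rows so detected. Leaving out single cells gave 0.50 to 0.69, and leaving out cells 5 and 13 gave 0.66. Against the Col4 genes the Rab score gave 0.15. The score was highest in cells 10 (3.78), 7 (3.75) and 11 (3.53) and lowest in cell 12 (2.42). The score of the partners of Arl proteins, over 5 genes, gave −0.66, retromer −0.46, ESCRT −0.42 and GARP/EARP −0.40. The Arl partners were grouped by name. Singly, the 4 of them detected in 8 or more cells ran from −0.37 (Arl6ip4) to 0.23 (Arl6ip5). All Vps genes pooled gave −0.50, or −0.36 without cells 5 and 13. The Rab GTPases and the Arl partners are the extremes of 14 groups, most of few genes.

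Gene by gene, the trafficking genes had correlations with the collagen score close to those of the other rows. For the 85 detected in 8 or more cells the median Spearman correlation with the collagen score was 0.04, beside 0.03 for all rows so detected. At 0.5 or more stood 4 genes (4.71%), where 5.28% of the other rows did, and at −0.5 or less stood 3 (3.53%), where 3.01% did. Both shares are near the background. With the fibrillar score the median was 0.13, beside 0.03 for the other rows.

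**Figure D5:**
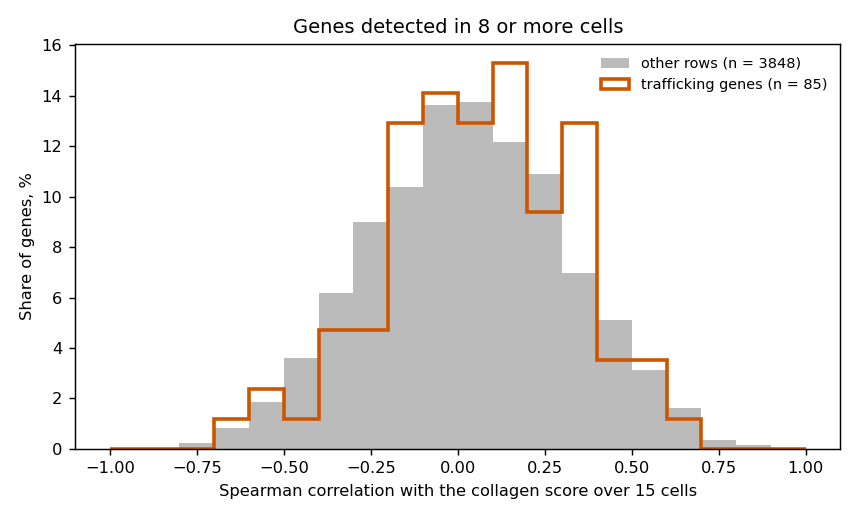
Histogram of Spearman correlations with the collagen score over the 15 cells (x axis) as a share of genes in percent (y axis), for 85 trafficking genes (outline) and 3848 other rows (grey) detected in 8 or more cells. The outline runs from −0.63 to 0.64 and the grey area from −0.77 to 0.85, with medians of 0.04 and 0.03.

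The 4 genes at the upper end were Copa (0.64), Tmed1 (0.59), Rab14 (0.58) and Rab3il1 (0.51). Rab14, which works between Golgi and endosomes, was highest in cell 11 (8.59) and low in cells 9 (1.53) and 12 (0.88). Tmed1 had a correlation of 0.63 with Col3a1 and 0.55 with Col1a1. Next came Rab2a (0.46), Arl5b (0.46), Rab7b (0.42) and Arf6 (0.40). At the lower end were Arl8b (−0.63), which positions lysosomes, Vps36 (−0.58), Arl2 (−0.50), Vps4b (−0.43), Arf1 (−0.39) and Sec22a (−0.39). Vps36 was at 8.09 or more in cells 5, 12 and 13, the 3 cells lowest in collagen, and at 0.49 or less in cells 6, 11 and 15, whose collagen scores were 7.27, 7.10 and 6.63. Cell 10 had 9.62 at a collagen score of 6.72. The part of the mural, adipocyte and mitosis genes of those 3 cells in this value was not tested.

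Other genes of the secretory route were read through lists of known members. Genes that fold and process collagen had a score with a Spearman correlation of 0.68 with the collagen score and 0.88 with the fibrillar score. Of 22 such genes detected in 8 or more cells 6 stood at 0.5 or more (27.3%, beside 5.28% of the other rows): Lox (0.81), which cross-links collagen, the collagen chaperone Serpinh1 (0.59), Loxl1 (0.54), Loxl2 (0.52), Pcolce (0.52) and P4ha2 (0.50). ER export receptors gave a score correlation of 0.05, with 0 of 18 rows at 0.5 or more. Its highest members were Lman1 (0.49), Ctage5 (0.46) and Mia3 (0.42 in the row detected in 12 cells), of which Ctage5 and Mia3 act in the export of large cargo. Mia3 has 2 rows in the table, and the other, detected in 3 cells, had −0.21. Of this list Ergic3 (median 8.81), Lman1 (8.07) and Kdelr2 (7.03) were detected in every cell. The partners of the translocon gave 0.23, with 1 of 23 genes at 0.5 or more, the signal peptidase subunit Sec11a (0.64). SNAREs gave 0.02, clathrin and its adaptors −0.05, regulators of Rabs and Arfs 0.11, and TRAPP tethers −0.10, each with 0 genes at 0.5 or more. At −0.5 or less stood Bet1 (−0.60) of 21 SNARE genes detected in 8 or more cells and Trappc3 (−0.61) of 6 TRAPP genes. The other lists had 0 genes there, beside 3.01% of the other rows. In breadth, 15 of 23 translocon partners and 9 of 20 rows of export receptors were detected in all 15 cells, as were 4 of 27 SNARE and fusion genes (14.8%) and 0 of 11 TRAPP genes, beside 12.1% of all rows. Gdi2 and Rabac1, which handle Rabs in the cytosol and at membranes, were detected in every cell with medians of 6.17 and 10.21.

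The trafficking genes held together little more than any rows. Over 3570 pairs of the 85 genes the median Spearman correlation was 0.02, and 4.17% of pairs reached 0.5. Over all pairs of rows detected in 8 or more cells these were 0.00 and 3.34%. The median was 0.11 within COPI, 0.10 within Tmed, 0.05 within COPII and 0.04 among Rab GTPases.

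Several values rest on reads that may be shared. Of the 133 genes, 3 had over 50% of their 50-base runs in transcripts of another gene: Vps25, Rab4b (93.1%, with Gm21983) and Rab43 (90.3%, with Gm45140). In 14 genes 10% or more of the exon bases lie over exons of the opposite strand, among them Rab2b (64.0%), Rab24 (62.4%) and Vps37b (42.5%). No label states whether counting used strand. Without Rab4b, Rab43, Rab24 and Rab2b the Rab score had a correlation of 0.55 with the collagen score.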

How the data were processed

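Per the labels' protocols, cDNA of single Tomato+ cells was made with the SMART-Seq v4 3' DE kit. Libraries were then prepared by Nextera XT. The submitters' processing notes name TopHat2, Cufflinks and GRCm38, without versions. How these were set is not stated there. The deposited values are on a log2 scale that ends at 13.69. Read as log2(FPKM + 1) they sum to a mean of 592948 FPKM per cell, so the base was inferred from the values, and the sorted values of the cells differ by at most 0.0354 above 0.2, as they would after quantile normalization by the authors, which no label states. No count test fits such values, and depth is unknown.

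No tests were planned or run, since all cells form 1 group. A score is the mean over genes detected in 3 or more cells, and correlations of single genes need 8 cells. Genes named are the 12 highest by median, the 8 highest and 6 lowest correlations with the collagen score, the 10 largest SDs, the highest of each role group, the fixed paralogue, retromer, HOPS and ESCRT genes, those detected in 0 or 1 cell, and high genes of each pathway list. Others were named after their values were seen. Members and lists were chosen with earlier results of these data known. Coordinates are GENCODE M21 (GRCm38). Promoters are from RefSeq. Shared 50-base runs were counted over all GENCODE transcripts. Alternatives covered thresholds, pseudocount, length, correlation type, collagen list and cells left out. The correlation code was tested on simulated data. Tools were Python 3.11.15, numpy 2.4.6, pandas 2.3.3 and scipy 1.17.1.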

Additional observations from a re-analysis of the deposited data

How the results depend on the processing

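Of the 12 results recomputed, 2 changed sign, both with Col4a1, Col4a2 and Col4a5 as the only collagens, an alternative chosen after seeing the data: the correlation of the trafficking and collagen scores became −0.22 and the median correlation of single genes −0.018. The excess of the median trafficking gene over the median row was 0.53 on the log2 scale and 1.54 with medians over cells in place of means. The correlation of the trafficking and collagen scores was 0.25, 0.13 by Pearson and 0.53 with fibrillar collagens only, and 0.12 to 0.43 when each cell was left out. The median correlation of single genes was 0.04, 0.03 to 0.11 when each cell was left out, and 0.13 with fibrillar collagens only. That of the secretory and endosomal scores was 0.48, 0.38 to 0.57 when each cell was left out, and 0.64 without cells 5 and 13, an alternative chosen after seeing the data, as were those of single role groups. When each cell was left out, their correlations with the collagen score ran from 0.50 to 0.69 for Rab GTPases, −0.61 to −0.38 for retromer, −0.63 to −0.38 for Vps genes (−0.36 without cells 5 and 13) and −0.84 to −0.60 for Arl partners (−0.84 without cell 5), and that of the secretory with the fibrillar score from 0.38 to 0.64. The causes were not tested. At 5 FPKM 18 of the 133 trafficking genes were detected in every cell in place of 27, and 7.03% of all rows in place of 12.1%. Depth is unknown, so a value near 0 cannot be told from a missed transcript. No paired analysis was possible because the cells form 1 group.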

Other observations

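Some pairs of trafficking genes went together, or apart, far more than the family as a whole. These pairs are the extremes of 3570 and were picked for their values. Sec13, of the COPII cage, and Arf1, the GTPase of COPI, had a Spearman correlation of 0.85 over the 15 cells. Sec13 was lowest in cells 5 (3.00) and 10 (3.95), and Arf1 in cells 10 (4.75) and 15 (4.84), while cells 11 and 13 were high in both (8.81 and 8.29 for Sec13, 8.66 and 8.95 for Arf1). Rab10, which directs vesicles to the plasma membrane, ran the other way, with −0.92 against Arf1 and −0.75 against Sec13. It was highest in cell 6 (7.18) and lowest in cell 2 (0.49), where Arf1 stood at 5.01 and 8.23. Rab8a and Vps72 had 0.79, Rab11a and Arf4 had 0.78, and Rab1a and Tmed9 had 0.77.

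The cells differed in how many trafficking genes peaked in them. Cell 10 held the highest value of 16 of the 133 genes (12.03%), and of 10.37% of all rows. Cell 11 held 14 (10.53%), and 5.16% of all rows. Cell 3 held 3 (2.26%), and 5.19% of all rows.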
